A study of Equus caballus with 14 samples.

Results

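The 100 genes that took the most reads in biopsies of the mare's corpus luteum are described here, out of 30371 genes counted. They were chosen by their mean CPM (a gene's count scaled by the library's total) over all 14 libraries, with the identifiers ENSECAG00000028173 and ENSECAG00000035318 left out by the rule. The mean level and the order that follows from it are therefore a description of the choice and carry no test. The gene table gives Ensembl identifiers, and the reference table of equine gene names matched 0 of them to a symbol, so genes are named by identifier and their functions are not stated.

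Healthy, cycling mares of light breed had luteal tissue taken through the vaginal wall at day 11 and day 13 after ovulation, and the tissue was sequenced to look for stably expressed reference genes. The 4 groups were non-pregnant mares at day 11 (NP11, n = 4) and day 13 (NP13, n = 4) and pregnant mares at day 11 (P11, n = 4) and day 13 (P13, n = 2). No treatment, allele or age is named for any group. The submitters enrolled 8 mares, while the sample titles name 6 mares and, with the biopsy dates, 8 corpora lutea.

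Of these corpora lutea, 6 were sampled on both days, so the day and an earlier biopsy of the same gland cannot be told apart. The earlier gland of the mare Kate is labelled pregnant at day 11 and non-pregnant at day 13. NP13 holds Kate 2 times, once for each of her glands, so its 4 libraries come from 3 mares. Libraries that share a mare are not independent, and p-values between groups that treat them as separate samples measure only the spread between these libraries. The smallest library held 20182039 counts (NP13 replicate 2) and the deepest 32186736 (P13 replicate 1). The tissue label was not checked against luteal markers, since no identifier had a symbol.

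The corpus luteum forms from the ovulated follicle and makes progesterone from cholesterol, with the steps that start the synthesis carried out in mitochondria. In a mare without an embryo the gland regresses under uterine prostaglandin, and in early pregnancy it is kept. Poly(A) libraries of a secretory tissue usually hold a small number of very abundant transcripts, which commonly include those of the mitochondrial genome, of ribosomal proteins and of the tissue's own secretory or synthetic enzymes. A change in the reads of a gene in such bulk tissue can come from fewer cells of a type or from less RNA per cell, and these cannot be told apart.

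The 100 genes held 36.9% ± 1.65 (SD, n = 14) of all counts. The lowest share was 35.3% in P13 replicate 2 and the highest was 40.1% in P11 replicate 1. The Wilson 95% interval of each share was at most 0.0209 percentage points to either side, covering counting error only. The spread between libraries was thus far wider than counting error. The leading gene alone took 3.31% of counts on average and the first 10 took 14.2% ± 1.14 (SD, n = 14). Within single libraries, between 24 and 40 genes made up 25% of the counts and between 213 and 295 genes made up 50%.

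**Figure D1:**
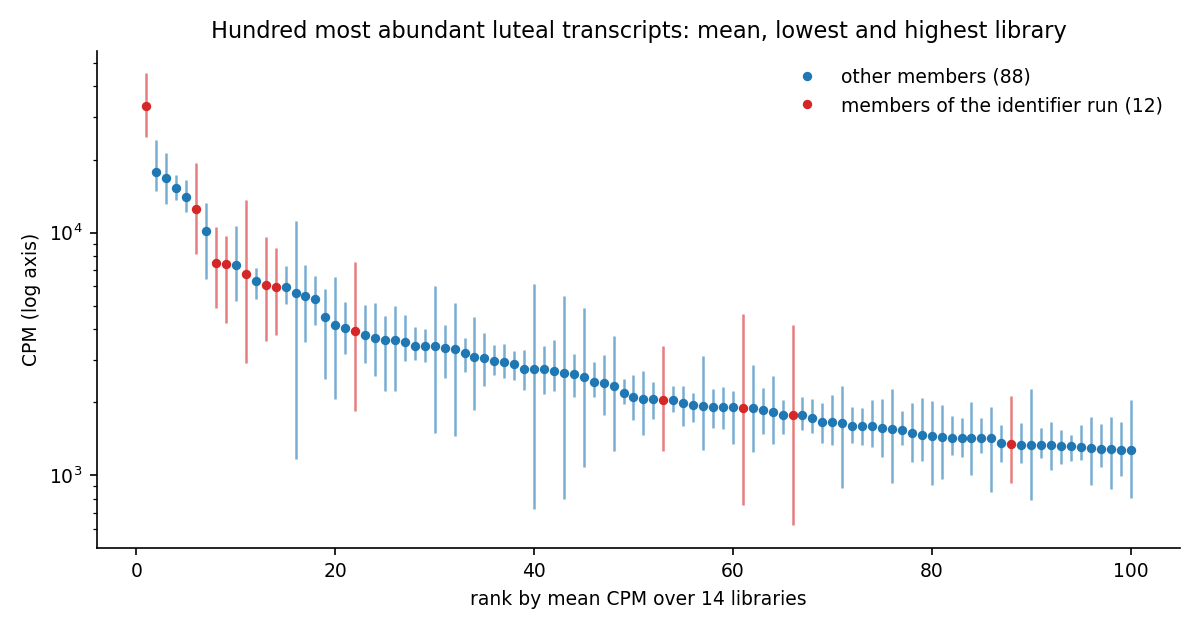
The level of each of the 100 genes (CPM, log axis) is plotted against its rank by mean CPM, with points for the mean and bars from the lowest to the highest of 14 libraries; red marks 12 genes with neighbouring identifiers (the identifier run) and blue the other 88. The means go from 33130 CPM to 1270 CPM, and the bars differ widely in length from gene to gene.

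The share of counts was compared between groups to ask whether the most abundant transcripts took more of the RNA on either day or with either status. It was 35.6%, 36.4%, 35.7% and 35.7% in the NP11 libraries and 37.8%, 35.8%, 36.2% and 39.0% in the NP13 libraries. In P11 it was 40.1%, 36.9%, 35.6% and 37.2%, and in P13 it was 40.0% and 35.3%. All groups overlapped, and the NP11 libraries lay closer together than those of the other groups.

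P11 exceeded NP11 by 1.59 percentage points (exact two-sided permutation p = 0.143, adjusted p = 0.357 over 5 tests). NP13 exceeded NP11 by 1.37 percentage points (exact permutation p = 0.114, adjusted p = 0.357). The differences of P13 from NP13 (0.434 percentage points) and from P11 (0.218 percentage points) had exact permutation p = 0.8 and p = 1, in designs whose smallest possible p is 0.0667. None passed the threshold. Within the 6 glands sampled on both days the share was higher at day 13 in 3 and lower in 3, with a mean difference of 0.385 ± 1.73 percentage points (exact sign-flip permutation p = 0.688, adjusted p = 1).

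**Figure D2:**
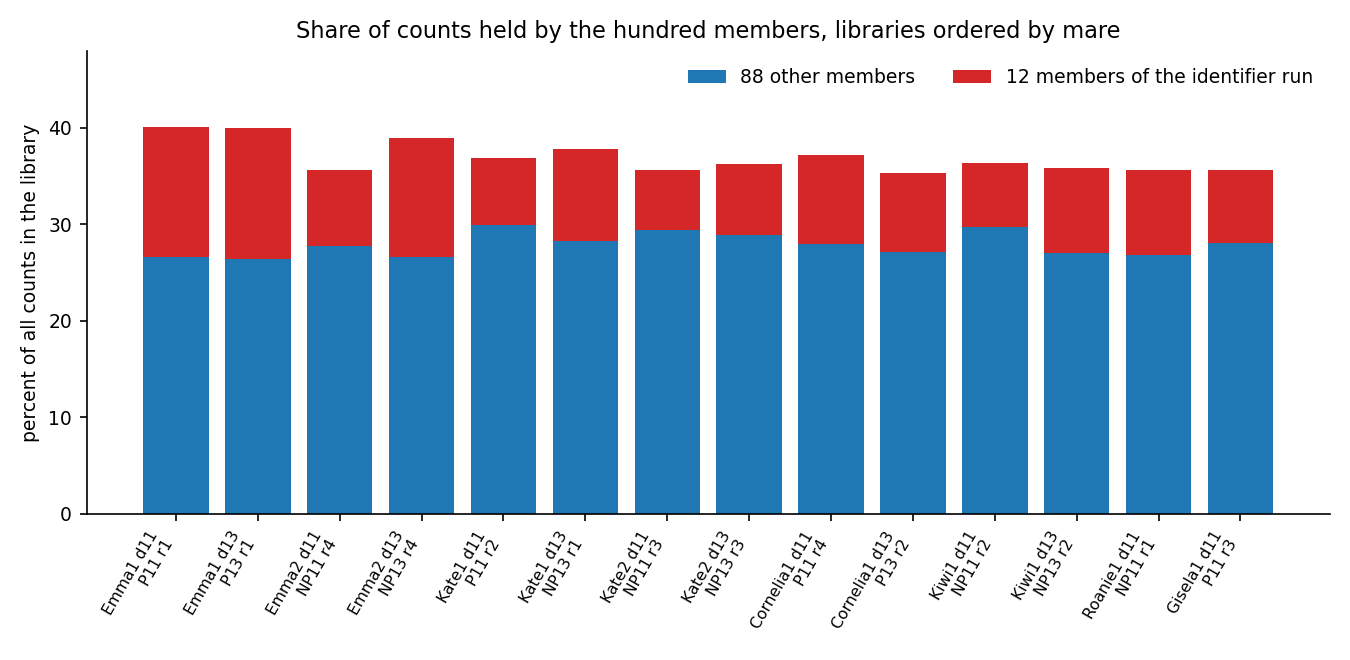
Each bar is 1 library, ordered by mare and labelled with its gland (Emma1 is the earlier gland of Emma and Emma2 the later), day, group and replicate, and its height is the percent of the library's counts held by the 100 genes, split into 12 genes with neighbouring identifiers (red) and the other 88 (blue). Heights run from 35.3% to 40.1%, and the red part is largest, at 13.4% and 13.6%, in the earlier gland of Emma.

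The order of the most abundant genes held across biopsies at its very top. CPM is not corrected for transcript length, so the order is one of reads taken, not of molecules. ENSECAG00000027689 was first in all 14 libraries, at 33130 ± 6516 CPM (SD, n = 14). Its level in CPM was 31294, 26573, 24695 and 26658 in NP11, then 37252, 33476, 29926 and 39682 in NP13. It was 44281, 27862, 30051 and 35856 in P11 and 45310 and 30905 in P13. Both highest values came from the 2 libraries of one gland of the mare Emma, and each group overlapped every other.

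The next genes were ENSECAG00000012746 at 17799 ± 2669 CPM, ENSECAG00000020474 at 16771 ± 2573 CPM and ENSECAG00000020363 at 15303 ± 1016 CPM (SD, n = 14 each). These 3 exchanged places between libraries and stayed within ranks 2 to 5. ENSECAG00000017998 followed at 14003 ± 1451 CPM, and ENSECAG00000027699 at 12566 ± 3659 CPM ranged from rank 2 to rank 8. ENSECAG00000017494, at 10112 ± 2096 CPM, ranged from rank 5 to rank 16.

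The remaining genes of the first 10 were ENSECAG00000027692, ENSECAG00000027681 and ENSECAG00000010554, at 7486 ± 1754, 7431 ± 1672 and 7366 ± 1493 CPM. Their ranges of 4899 to 10504, 4256 to 9670 and 5208 to 10615 CPM nearly coincide, so their order among themselves lies within the spread between libraries. In all, 7 genes had means above 10000 CPM, 11 lay between 5000 and 10000 CPM, 36 between 2000 and 5000 CPM, and 46 at or under 2000 CPM.

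The lower edge of the set was not a break in the data. ENSECAG00000021314, ENSECAG00000021927 and ENSECAG00000029371 were the last included, at 1281, 1272 and 1270 CPM, and ENSECAG00000040878, ENSECAG00000008958 and ENSECAG00000009152 the next outside, at 1258, 1245 and 1235 CPM. All 100 genes passed the low-count filter, and the smallest count of any of them in any library was 17007. The left-out ENSECAG00000035318 had a mean of 1548 CPM, which would rank 77, and varied from 17.4 to 3308 CPM. The left-out ENSECAG00000028173 had a mean of 506 CPM and would rank 271.

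A library's own 100 most abundant genes shared between 88 (NP11 replicate 2) and 96 (P13 replicate 1) with the set. There were 68 genes in the top 100 of every library, 11 in the top 20 of every library and 6 in the top 10 of every library. Across libraries 138 different genes entered a top 100, of which 38 were outside the set. Genes well inside the set also left it in some libraries. ENSECAG00000015003, of mean rank 16, fell to rank 116 in 1 library, and ENSECAG00000027672, of mean rank 66, was in the top 100 of 6 libraries and reached rank 232.

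Biopsies of the same mare, from 1 gland or 2, tended to resemble each other more than those of different mares. Over the 100 genes, Spearman's rho between both days of a gland was 0.845 to 0.975 (6 pairs, median 0.926). Between glands of one mare it was 0.799 to 0.927 (8 pairs, median 0.896), and between mares 0.684 to 0.932 (77 pairs, median 0.812). These are descriptions over genes of libraries that share animals. A median of 7 of the 100 genes differed more than 2-fold between libraries of different mares, against 2.5 between both days of a gland and 1.5 between different glands of 1 mare.

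The most abundant genes were on the whole no steadier than less abundant ones. Their SD of log2(CPM + 0.5) over 14 libraries had a median of 0.22, with single genes between 0.10 and 1.06. The 8424 other genes at 10 CPM or more on average had a median SD of 0.19, and the 1345 genes between 100 CPM and the set had 0.18. A run of 12 genes with neighbouring identifiers had a median of 0.42 and the other 88 genes of the set 0.19. An SD under 0.15 was found for 18 of the 100 and for 27.5% of the other genes, and an SD above 0.5 for 9 of the 100 and for 5.89% of the others. With TMM scaling, a correction for composition, only 5 of the 100 had an SD under 0.15 and the median was 0.24, against 0.19 for the other genes.

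ENSECAG00000020363 varied least, with an SD of 0.10 in log2 CPM and levels between 13578 and 17192 CPM. ENSECAG00000023179 had an SD of 0.10 at a mean of 2191 CPM, and ENSECAG00000021065, ENSECAG00000009573 and ENSECAG00000019677 had SDs of 0.12 to 0.13. At the other end, ENSECAG00000015003 ranged from 1163 CPM in NP13 replicate 3 to 11139 CPM in NP11 replicate 4. Across the set the highest library exceeded the lowest by a median of 1.65-fold, with 37 genes over 2-fold and 9 over 4-fold.

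Many of the abundant genes differed between mares. In an edgeR quasi-likelihood test of mare, with the 4 groups in the model, 26 of the 100 passed an adjusted p of 0.05, where 9.17% of all 15437 genes tested did so. The share was 15.2% among genes of at least 100 CPM. Unadjusted p was under 0.05 in edgeR's test for 61 of the 100 and for 4610 of the 15437 genes tested. The count fell to 8 without NP11 replicate 3, against 3.65% of all genes, and to 10 without both libraries of the gland that changed label, against 2.78%. It was 29 without NP11 replicate 1, against 11.1%. Of the 14 libraries, 11 lowered the count by more than 1.5 times when left out, so the number of genes called rests on single libraries. The mare stands here for everything that her libraries share, and mares are spread unevenly over the groups. The test took both days of a gland as separate samples, so its p-values measure the spread between libraries, not between glands. Mares other than Emma and Kate gave a single gland each, so mare and gland are not separated there.

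**Figure D3:**
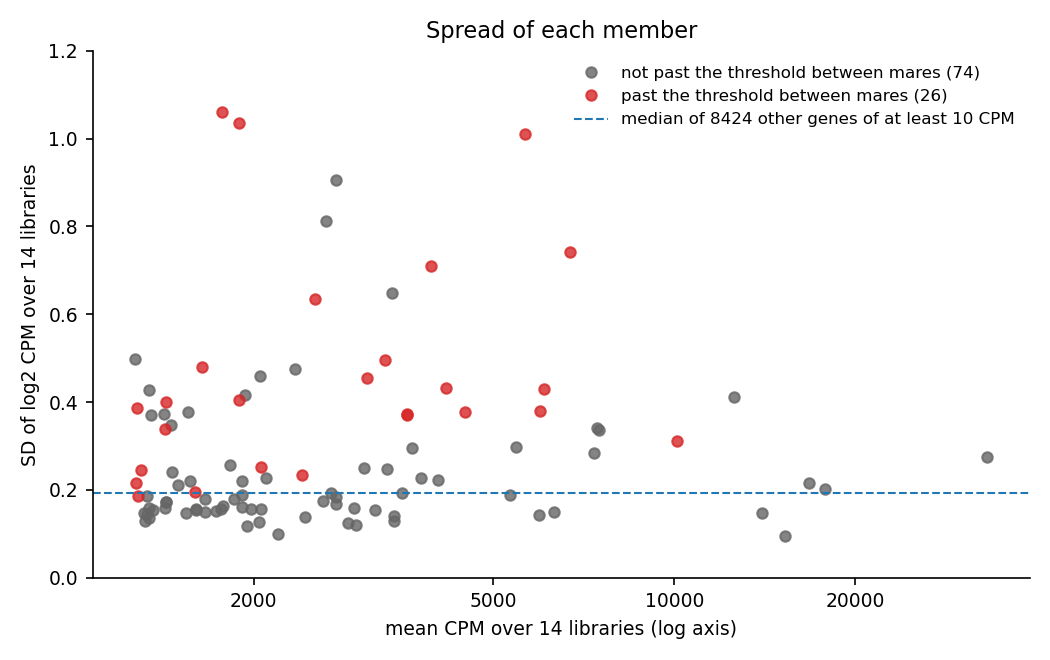
The SD of log2(CPM + 0.5) over 14 libraries is plotted against mean CPM (log axis) for each of the 100 genes, with the 26 that passed the test between mares in red, the other 74 in grey and the median of 8424 other genes as a dashed line. The lowest SDs, near 0.10, include ENSECAG00000020363 at 15303 CPM, and the SDs above 1 belong to genes that differed between mares.

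The smallest p belonged to ENSECAG00000027672 (edgeR adjusted p = 0.000108). Its level was 3453 ± 693 CPM in Emma (SD, n = 4) and 2436 ± 596 CPM in Kiwi (n = 2), against 755 ± 129 CPM in Kate (n = 4) and 774 ± 34.7 CPM in Cornelia (n = 2). Roanie and Gisela, with 1 library each, had 874 and 682 CPM. Emma's 4 libraries, of 2 glands and both statuses, lay between 2531 and 4151 CPM, and Kiwi's at 2014 and 2858 CPM. No library of the other 4 mares exceeded 933 CPM.

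ENSECAG00000027675 followed (edgeR adjusted p = 0.000398), at 4090 ± 963 CPM in Emma and 900 ± 210 CPM in Kate (SD, n = 4 each). ENSECAG00000027671 (edgeR adjusted p = 0.00179) had 11227 ± 2697 CPM in Emma, 8343 ± 2119 CPM in Kiwi and 3830 ± 873 CPM in Kate. Emma and Kiwi were thus high for ENSECAG00000027671 as for ENSECAG00000027672, while Kiwi reached 1409 ± 516 CPM for ENSECAG00000027675.

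Other genes separated other mares. ENSECAG00000009752 (edgeR adjusted p = 0.00292) was low in Kate, at 966 ± 70.4 CPM (SD, n = 4), against 2045 ± 202 CPM in Emma (n = 4). The remaining mares had 1492 to 1971 CPM. ENSECAG00000030691 (edgeR adjusted p = 0.00798) was low in Emma, at 1368 ± 238 CPM, and high in Kiwi, at 4364 ± 757 CPM. ENSECAG00000007024 (edgeR adjusted p = 0.0179) had 2488 ± 252 CPM in Emma and 2826 CPM in Gisela, against 3881 to 4414 CPM in the others. The differences between mares thus did not follow a single axis.

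ENSECAG00000015003 (edgeR adjusted p = 0.0401) had one of the widest ranges. Its level was 9424 ± 1304 CPM in Emma (SD, n = 4) and 10483 CPM in Gisela, and 2448 ± 1420 CPM in Kate (SD, n = 4). Kiwi, Cornelia and Roanie lay between, at 4293 ± 1001, 3643 ± 650 and 5082 CPM. The remaining genes of the 10 with the smallest p were ENSECAG00000027694, ENSECAG00000016854, ENSECAG00000019125 and ENSECAG00000013062, with edgeR adjusted p of 0.00744, 0.0111, 0.0124 and 0.0228.

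Of the squared deviations in log2 CPM, a median of 69.5% lay between mares for the 100 genes, against 63.4% for other genes of at least 10 CPM. The part between the 4 groups had medians of 11.8% and 13.6%. With 6 mares and 4 groups over 14 libraries, both figures are descriptions of these libraries and the former is raised by the number of mares. After mare means were removed, the median SD was 0.14 in the set and 0.14 in the other genes.

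The run of 12 genes had identifiers that lie within 10 numbers of a neighbour, between ENSECAG00000027669 and ENSECAG00000027699. It included 4 of the first 10 genes of the set, ENSECAG00000027689 among them. Of the 31 table identifiers in that span, the highest outside the set reached 262 CPM and 6 had no count in any library. The other groups of neighbouring identifiers in the set held 2 genes each. What the identifiers have in common beyond their numbers was not determined here.

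The 12 genes took 9.04% ± 2.42 (SD, n = 14) of all counts, from 6.21% in NP11 replicate 3 to 13.6% in P13 replicate 1. By mare, the run held 11.8% ± 2.64 in Emma and 7.49% ± 1.44 in Kate (SD, n = 4 each). The other 88 genes took 27.9% ± 1.21 of all counts, and 30.7% ± 0.839 of the counts outside the run (SD, n = 14). Much of the movement in the share of the 100 genes therefore lay in these 12, whose SD was larger in percentage points than that of the 88.

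Across the 14 libraries the 12 genes had a median pairwise r of 0.79 in log2 CPM (66 pairs, 0.20 to 0.98). The median was -0.20 between them and the others (1056 pairs) and 0.12 among the others (3828 pairs). These correlations share libraries, glands and the total that scales CPM, so a gene set that takes more of the total lowers the others by construction.

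Grouping the 100 genes by correlation across libraries, at an average r of at least 0.8, gave 7 sets of 3 or more genes and left 50 genes in none. The grouping used these same values, so it is a description. The largest set held 26 genes, none of them in the run, with a median r of 0.86. It included the steady ENSECAG00000020363 and ENSECAG00000023179, and its genes had a median SD of 0.16. It took the least of the counts in NP13 replicate 2, at 5.49%, and the most in P11 replicate 2, at 7.32%. The share was 6.96% ± 0.482 in Kate (SD, n = 4) and 5.66% ± 0.233 in Kiwi (n = 2).

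The run itself fell into a set of 7, a set of 4 and 1 gene in neither. The set of 7, which held ENSECAG00000027689, took 5.31% to 10.4% of counts. The set of 4, ENSECAG00000027671, ENSECAG00000027672, ENSECAG00000027675 and ENSECAG00000027694, took 0.629% to 2.97%. All 4 of the latter differed between mares by edgeR's test, and their share was 2.55% ± 0.546 in Emma, 1.58% ± 0.469 in Kiwi and 0.789% ± 0.190 in Kate (SD, n = 4, 2 and 4).

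Another set of 4 lay outside the run and varied more within mares than between them. ENSECAG00000013693, ENSECAG00000013874, ENSECAG00000024740 and ENSECAG00000024769 correlated with r of 0.84 to 0.99, and 0 of the 4 passed edgeR's test between mares. A median of 22.8% of their squared deviations lay between mares. Together they took 0.448% of counts in P11 replicate 4 and 2.07% in NP13 replicate 3.

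**Figure D4:**
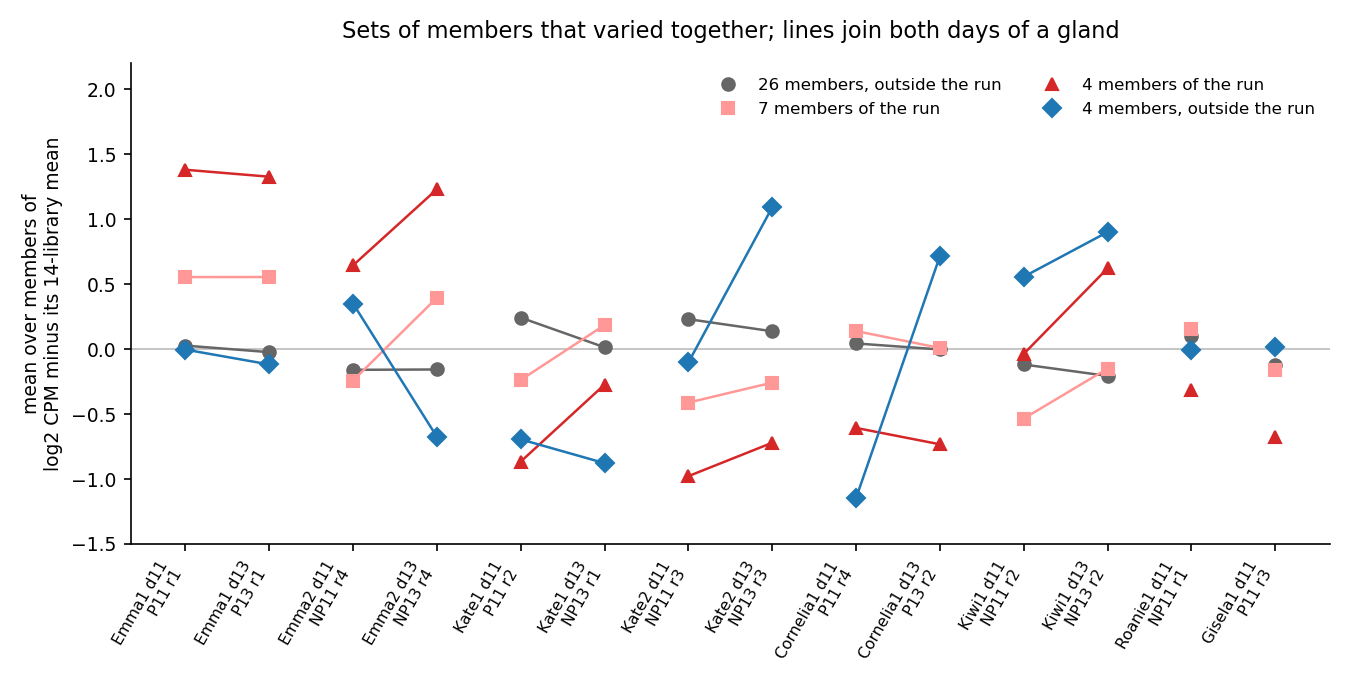
For 4 sets of genes that varied together, the mean over genes of log2 CPM minus the gene's mean over 14 libraries is plotted by library, with lines joining day 11 and day 13 of a gland. The set of 4 in the run (red triangles) is above 0 in all 4 libraries of Emma, while the set of 4 outside the run (blue diamonds) goes up in 3 glands and down in 3.

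Within glands that last set changed in opposite directions. Its share went from 0.448% at day 11 to 1.56% at day 13 in the gland of Cornelia, from 0.889% to 2.07% in the later gland of Kate and from 1.43% to 1.81% in Kiwi. It went from 1.28% to 0.606% in the later gland of Emma, from 0.596% to 0.513% in the earlier gland of Kate and from 0.958% to 0.876% in the earlier gland of Emma. The higher glands included a pregnant and a non-pregnant one, as did the lower glands.

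ENSECAG00000013693 showed the widest such changes. Its level was 2447, 3881, 2035 and 2989 CPM in NP11 and 1200, 5345, 6115 and 1188 CPM in NP13. In P11 it was 2464, 1147, 2276 and 729 CPM, and in P13 it was 2134 and 4406 CPM. The NP13 libraries split widely, with 2 near the lower end and 2 near the upper end of the range of all 14. On the log2 scale, day 13 minus day 11 was 2.59 in Cornelia and -1.33 in the later gland of Emma. P13 differed from P11 by a log2 fold change of 0.95 ± 0.62 (SE, edgeR adjusted p = 1).

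No gene of the set passed the threshold for pregnancy status or day. In edgeR's quasi-likelihood test over 15437 genes, 0 of the 100 had an adjusted p under 0.05 for P11 against NP11, P13 against NP13, NP13 against NP11 or P13 against P11. The share of all genes passing in each of these was 0%. The average of status over days and the difference between the day effects also gave 0 of the 100, against 0% of all genes. The average of day over status gave 0 of the 100, against 0.0324% of all genes. DESeq2 called 0 of the 100 in all 7 comparisons as well. It called 0.013% of all genes in P11 against NP11, 0% in P13 against NP13, 0.0453% in NP13 against NP11 and 0.0713% in P13 against P11. For the average of status, the average of day and the difference between the day effects, DESeq2 called 0.0324%, 0.279% and 0% of all genes.

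Unadjusted p was under 0.05 in edgeR for 1 gene of the 100 in P11 against NP11, against 4.13% of all genes, and for 1 in NP13 against NP11, against 2.69%. It was under 0.05 for 0 of the 100 in P13 against NP13 and in P13 against P11, against 2% and 2.23% of all genes. For status averaged over days it was under 0.05 for 6 of the 100, against 4.25%, with 4 higher against 2.44% and 2 lower against 1.81%. For day averaged over status and for the difference between the day effects it was 0 of the 100, against 2.84% and 1.66%. With DESeq2 the unadjusted counts were 7 of the 100 in P11 against NP11 and 2 in P13 against NP13, against 4.26% and 2.52% of all genes. They were 2 in NP13 against NP11 and 1 in P13 against P11, against 3.03% and 2.4%.

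The intervals describe how large a change the main fit leaves possible. That fit has no block for mare or gland and treats the libraries as independent. For P11 against NP11 the 95% interval of edgeR's fold change lay within 1.5-fold in either direction for 60 of the 100 genes and within 2-fold for 88. For all genes tested these shares were 51.9% and 71.8%. In NP13 against NP11 the counts were 64 and 90, against 51.9% and 72.4% of all genes. In P13 against NP13 they were 53 and 79, against 41.2% and 65.0%. In P13 against P11 they were 49 and 86, against 42.6% and 66.1%. The largest log2 fold changes in either direction were 0.75, 0.70, 0.76 and 0.95, in the same order of comparisons.

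The comparison of P11 with NP11 asks whether abundant transcripts already differ with pregnancy at day 11. ENSECAG00000019677 had the smallest p among the genes that were higher. Its level was 2468, 2851, 2701 and 2648 CPM in NP11 and 3207, 3086, 3239 and 2991 CPM in P11, and the libraries of these groups did not overlap. The gene was picked by its p in this same comparison, so the separation adds no support. The share of all genes without overlap was not counted. The log2 fold change was 0.27 ± 0.12 (SE, edgeR adjusted p = 1). At day 13 the groups overlapped, with 2565 to 3140 CPM in NP13 and 2867 and 3014 CPM in P13.

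ENSECAG00000000398 had the smallest p among the genes that were lower in P11. Its level was 1905, 1718, 1747 and 1674 CPM in NP11 and 1366, 1465, 1259 and 852 CPM in P11. There was again no overlap, in a gene again picked by its p in this comparison. The log2 fold change was -0.47 ± 0.22 (SE, edgeR adjusted p = 1). In NP13 ENSECAG00000000398 had 1379, 1444, 879 and 1885 CPM, a range that overlaps both day 11 groups. It also had the smallest p among the genes that were lower in NP13 than in NP11.

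Of the 100 genes, 72 were higher and 28 lower in P11 than in NP11, with a median log2 fold change of 0.07 against 0.01 over all genes. With library totals in place of TMM the counts were 60 and 40, and without the gland that changed label they were 43 and 57. The direction of the majority thus depended on that gland. With mare as a block, 15 genes were higher at an unadjusted edgeR p under 0.05, 10 of them in the run, against 2.64% of all genes, and 0 were lower, against 2.36%. The smallest adjusted p among those 15 in edgeR was 0.908. Only Emma and Kate gave libraries to both P11 and NP11. Emma's P11 gland was sampled in month 6 and her NP11 gland in month 8. Kate's P11 gland is the one that changed label. The run held 13.4% of counts in P11 and 7.94% in NP11 in Emma, and 6.94% and 6.21% in Kate.

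At day 13, 52 of the 100 genes were higher and 48 lower in P13 than in NP13, with a median log2 fold change of 0.00. The counts were 62 and 38 with library totals, 73 and 27 with mare as a block, and 67 and 33 without the gland that changed label. They were 32 and 68 without NP13 replicate 2, and 39 and 61 without NP13 replicate 4 or without P13 replicate 1, so this direction also depended on single libraries. The P13 group has 2 libraries, from different mares. ENSECAG00000007010 had the smallest p among the genes that were higher, at 1791, 2364, 1879 and 1696 CPM in NP13 and 2188 and 2602 CPM in P13. Its log2 fold change was 0.29 ± 0.16 (SE, edgeR adjusted p = 0.999), and the groups overlapped.

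ENSECAG00000017494, one of the 10 most abundant, had the smallest p among the genes that were lower in P13. It had 12140, 11312, 11601 and 8863 CPM in NP13 and 6440 and 8913 CPM in P13. The log2 fold change was -0.55 ± 0.26 (SE, edgeR adjusted p = 0.999). The groups met at 8863 and 8913 CPM, and the 4 libraries of the mare Emma were at 8863 CPM or below in both statuses and on both days.

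From day 11 to day 13 in non-pregnant mares, 58 genes were higher and 42 lower, with a median log2 fold change of 0.01. With library totals the counts were 37 and 63. With TMM they were 41 and 59 with the gland as a block and 39 and 61 with mare as a block. Without the gland that changed label they were 42 and 58. Leaving out single libraries gave between 42 and 58 (without NP11 replicate 4) and 77 and 23 (without NP11 replicate 3). The direction of the majority thus flipped with the scaling, the block and the libraries kept. ENSECAG00000027676, a gene of the run, had the smallest p. It had 1995, 1258, 1369 and 1363 CPM in NP11 and 2439, 1354, 2138 and 3425 CPM in NP13, with a log2 fold change of 0.70 ± 0.28 (SE, edgeR adjusted p = 1). The groups overlapped through NP13 replicate 2 at 1354 CPM. The log2 fold change of ENSECAG00000027676 fell to 0.45 when NP13 replicate 4 was left out, and leaving out NP13 replicate 2 gave 0.91.

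All 12 genes of the run had positive log2 fold changes in NP13 against NP11, with a median of 0.42, and in P11 against NP11, with a median of 0.37. In P13 against P11 12 of 12 were also positive (median 0.21), and in P13 against NP13 10 of 12 (median 0.20). The direction did not hold for the contrasts with P13. Without P13 replicate 1, 0 of 12 were positive in P13 against P11 and 3 of 12 in P13 against NP13, and with the gland as a block 0 of 12 were positive in P13 against P11. Without P11 replicate 1, 7 of 12 were positive in P11 against NP11. None passed an adjusted p of 0.05 in edgeR, and the comparisons share groups. When the gland was a block in the model, 9 genes were higher in NP13 than in NP11 at an unadjusted edgeR p under 0.05, all 9 in the run, against 2.09% of all genes, and 3 were lower, against 1.09%. The smallest adjusted p of the 9 in edgeR was 0.544. The 12 genes varied together across these libraries (median pairwise r 0.79), so counts of them are not counts of independent results.

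Within glands the run's share was higher at day 13 in 5 of 6. It went from 7.94% to 12.3% in the later gland of Emma, from 6.94% to 9.54% and from 6.21% to 7.28% in the glands of Kate, and from 6.69% to 8.80% in Kiwi. In the pregnant glands it went from 13.4% to 13.6% in Emma and from 9.22% to 8.18% in Cornelia. The larger differences were in glands labelled non-pregnant at day 13, and the difference between the statuses was not tested on this share.

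From day 11 to day 13 in pregnant mares, 36 genes were higher and 64 lower, with a median log2 fold change of -0.07. Without the gland that changed label the counts were 56 and 44. ENSECAG00000013874 had the smallest p, at 1695, 1384, 1500 and 1455 CPM in P11 and 1732 and 2972 CPM in P13. Its log2 fold change was 0.61 ± 0.30 (SE, edgeR adjusted p = 1), and the P13 libraries lay further apart than the P11 libraries. The value for ENSECAG00000013874 was 0.25 without P13 replicate 2 and 0.92 without P13 replicate 1. When the gland was a block, 3 of the 100 were higher and 2 lower at day 13 in pregnant mares at an unadjusted edgeR p under 0.05, against 3.12% and 1.01% of all genes.

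ENSECAG00000014483 had the smallest p among the genes that were lower in P13 than in P11. It had 2593, 3809, 4795 and 4328 CPM in P11 and 2228 and 3343 CPM in P13, with overlap. The log2 fold change was -0.50 ± 0.29 (SE, edgeR adjusted p = 1), and it was -0.26 without P13 replicate 1 and -0.74 without P13 replicate 2. Its lowest values in both groups came from the same gland of Emma.

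Comparing both days within each gland gave small changes for most genes. Between 2% (the earlier gland of Emma) and 15% (the later gland of Emma) of the 100 genes differed by more than 0.5 in log2 CPM. For the other genes of at least 10 CPM the share was 5.58% to 7.69%. The share of the 100 was the larger in every gland except the earlier gland of Emma (2% against 6.58%). The gap was widest in the later gland of Emma (15% against 6.85%) and narrowest in the earlier gland of Kate (6% against 5.58%). The median change of the 100 genes was between -0.12 and 0.00 on the log2 scale.

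By CPM from library totals, 14 of the 100 genes were lower at day 13 in all 6 glands, against 2.24% of 8524 genes of at least 10 CPM, and 0 of the 100 were higher in all 6, against 0.974%. Of the 14, 6 belonged to the set of 26 and 0 to the run. With TMM scaling 4 of the 100 were lower in all 6 glands, against 2.05% of genes, and 0 higher, against 1.03%. With RLE scaling 4 were lower, against 2.19%. As a share of the counts outside the run, the other 88 genes were lower at day 13 in 5 of 6 glands. The 4 genes lower in all 6 glands with TMM were ENSECAG00000015003, ENSECAG00000009702, ENSECAG00000013062 and ENSECAG00000008403. Of these, ENSECAG00000008403 was not among the 14, since by library totals it was higher at day 13 in 1 gland.

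**Figure D5:**
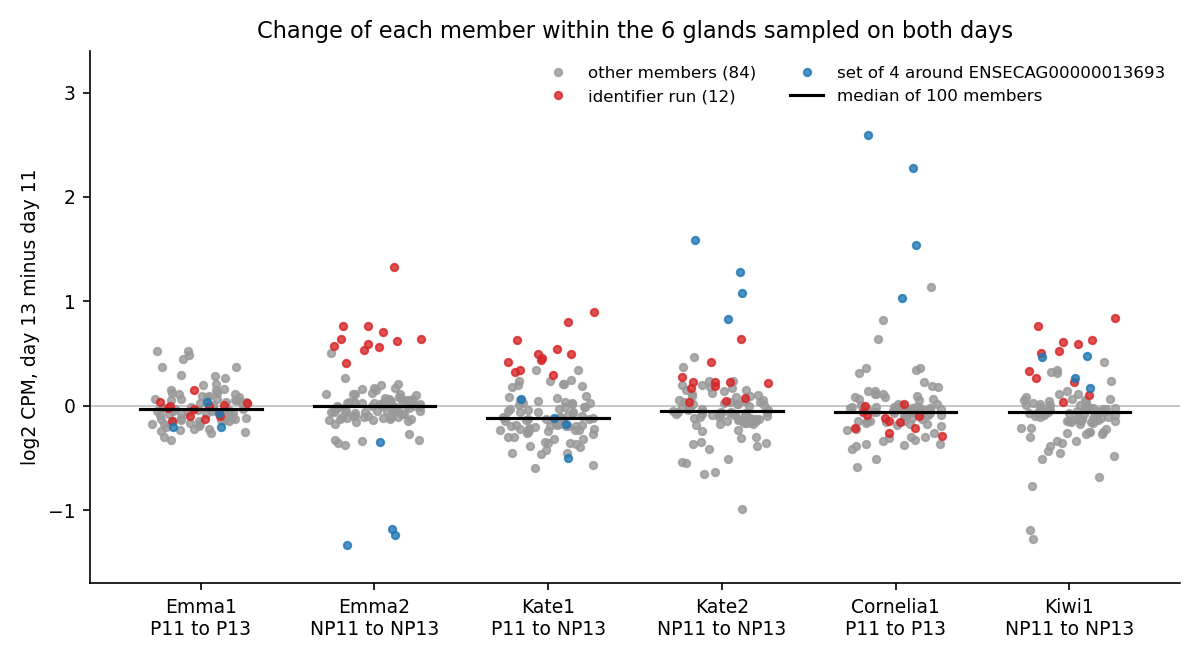
Each point is 1 of the 100 genes, and its height is the change in log2 CPM from day 11 to day 13 in 1 of the 6 glands, with the run of 12 in red, the set of 4 around ENSECAG00000013693 in blue, the other 84 in grey and a bar at the median. Most genes lie near 0, the set of 4 lies high in Cornelia and the later gland of Kate and low in the later gland of Emma, and the run lies mostly above 0 in 4 glands.

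ENSECAG00000015003 showed the clearest within-gland pattern on a large difference between mares. It had 5082, 5001, 1493 and 11139 CPM in NP11 and 2869, 3585, 1163 and 8889 CPM in NP13. In P11 it had 9600, 4267, 10483 and 4102 CPM, and in P13 8066 and 3183 CPM. The groups overlapped almost fully, while the log2 change from day 11 to day 13 of a gland was negative in 6 of 6, between -0.57 and -0.25.

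Without a block the day effect on ENSECAG00000015003 averaged over status was -0.35 ± 0.50 (SE, log2, edgeR adjusted p = 0.9999). When the gland was a block it was -0.36 ± 0.09 (SE, edgeR adjusted p = 0.418). With a day term shared by both statuses, chosen after seeing the data, it was -0.40 ± 0.07 (SE, edgeR adjusted p = 0.177). The SE was smaller with the block, and the adjusted p missed the threshold in all 3 fits.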

How the data were processed

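The authors deposited unnormalised counts of reads for each Ensembl gene in 14 libraries, made from directional poly(A) libraries of 1000 ng total RNA, per the labels' protocols. Trim Galore, STAR and EquCab3.0 are named per the submitters' processing notes. Neither versions nor the counting tool, its strand setting or the annotation release is stated (not given in the sources used here), so counts of near-identical, overlapping or antisense genes are uncertain.

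CPM was computed from column totals, and levels, SDs and shares use it, with log2(CPM + 0.5). No library pair was a copy. Tests used the quasi-likelihood fit of edgeR 4.0.16 (with limma 3.58.1, under R 4.3.3), with TMM scaling, filterByExpr and 1 mean for each of 4 groups, and p-values were adjusted by Benjamini and Hochberg over 15437 genes with a threshold of 0.05. DESeq2 1.42.0, limma-voom, other scalings and filters, blocks and left-out libraries were alternatives. The mare test added mare terms. Scripts were tested on simulated data.

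Mare and gland come from the names and biopsy dates in the titles. Same-gland deviations from group means correlated at 0.03 to 0.52 over 6 pairs. Replicate numbers follow sample order and pair nothing.

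The set, gene lists and tests were chosen with earlier results of these data known. Named genes are the 10 highest, those beside the lower edge, the 5 largest and 5 smallest SDs, the smallest p in each direction of a comparison and up to 10 called genes. Members of sets and genes with the same direction in all glands were named after their values were seen. Lists by symbol and markers were not used, since 0 identifiers had a symbol.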

Additional observations from a re-analysis of the deposited data

Results flagged for a closer look

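Of 117 sets of 4 library values compared, 8 held a library set apart from the other 3 of its group by Dixon's criterion, and chance sets apart about 1 in 20. Many of the genes compared were chosen by their spread or p in these same libraries, so that rate does not hold for them. The share of counts held by the 100 genes was 36.39% in NP11 replicate 2, against 35.64% to 35.69% in the other NP11 libraries. ENSECAG00000021927 had 1578 CPM in NP11 replicate 3, against 1102 to 1173 CPM. ENSECAG00000027676 had 1995 CPM in NP11 replicate 1, against 1258 to 1369 CPM. ENSECAG00000007024 had 2639 CPM in NP11 replicate 4, against 4164 to 4414 CPM. ENSECAG00000007010 had 1732 CPM in P11 replicate 2, the gland later labelled non-pregnant, against 2457 to 2499 CPM.

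Of these sets, 3 belonged to the run of neighbouring identifiers and to P11 replicate 1, a biopsy of Emma. The 3 genes were compared because they had the smallest p between mares, with Emma high. P11 holds a single library of Emma, so its standing apart repeats that difference between mares and adds no support to it. ENSECAG00000027671 had 13645 CPM there, against 3533 to 4566 CPM in the other P11 libraries. ENSECAG00000027672 had 4151 CPM, against 682.3 to 798.7 CPM, and ENSECAG00000027675 had 4623 CPM, against 761 to 861.8 CPM. The day 13 library of the same gland had 12779, 3761 and 4606 CPM.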

How the results depend on the processing

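No gene of the 100 passed an adjusted p of 0.05 in any of 163 alternative fits of the 7 comparisons (smallest adjusted p 0.177). With mare or corpus luteum as a replicate block, 0 of the 100 were called. Calls over all 15437 genes did change. For day averaged over status the corpus luteum block called 46, the mare block 0 and the main fit 5. With a day term shared by both statuses the corpus luteum block called 1. In P13 against P11 the corpus luteum block called 15, and in NP13 against NP11 it called 4. The main fit called 0 in both. The count called between mares was 26 with each scaling, 8 to 29 when each library was left out, and 10 without both libraries of the gland that changed label. The count lower at day 13 in all 6 glands was 14 by totals, 4 by TMM and 4 by RLE, and not all of the 4 by TMM were among the 14. Leaving out each library in turn, the difference in the share of the 100 genes ran from 0.702 to 2.19 percentage points for P11 minus NP11, 0.781 to 1.83 for NP13 minus NP11, -1.89 to 2.76 for P13 minus NP13 and -2.11 to 2.55 for P13 minus P11. P13 minus NP13 changed sign without P13 replicate 1 (-1.89) or NP13 replicate 2 (-0.026), and P13 minus P11 without P13 replicate 1 (-2.11) or P11 replicate 3 (-0.388). The within-gland difference ran from -0.202, without the later gland of Emma, to 0.828. The cause was not tested for any of these changes, beyond fewer samples. The lowest count of any of the 100 genes in a library was 17007, so counting error was small beside the spread between libraries.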
